A study of Mus musculus with 53 samples.

Results

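The genes described here are the 3 Slit ligands (Slit1, Slit2 and Slit3), the 3 neural Robo receptors (Robo1, Robo2 and Robo3) and 4 netrin receptors (Unc5a, Unc5b, Unc5c and Dcc). They make 10 of the 55573 genes in the bulk tables and 10 of the 57010 genes in the single-cell matrices, and were found there by gene symbol. The set was selected on gene family and on values of these same mutant and control libraries that were known from earlier work on the files, and no single value or threshold was recorded for the choice. Levels, fold changes and calls below therefore describe these 10 genes and give no independent support to the choice. All 10 passed the low-count filter of the fits over whole cerebellum at P2, over all cells at P7 and over the granule lineage at P7; in some alternative fits of the lineage 9 passed.

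The study asked how muscle genes are kept off in the developing mouse cerebellum. Mutants were Atoh1Cre; Insm1fl/fl mice, which lack the zinc finger repressor Insm1, or Atoh1Cre;Tead1fl/fl;Tead2fl/fl mice, which lack the transcription factors Tead1 and Tead2. Atoh1Cre acts in cells of the rhombic lip, chiefly the granule cell lineage but also unipolar brush cells and some neurons of the cerebellar nuclei, and cells of other origin keep the floxed alleles. The controls were Insm1fl/fl or Tead1fl/fl;Tead2fl/fl mice without Cre. Whole cerebella were sequenced in bulk on day 2 after birth (P2), with 4 controls and 4 mutants in the Insm1 line and 3 controls and 4 mutants in the Tead1/2 line. On day 7 (P7) cells were sequenced singly from 2 controls and 3 mutants per line, each library from 1 cerebellum. These 10 libraries form 1 deposited sample, and their genotypes were read from the library names in its cell metadata.

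Slit proteins are secreted and bind Robo receptors, and the pair is best known for repelling growing axons and migrating neurons. Netrin attracts through Dcc and repels where Unc5 receptors take part, and both receptor types can also be cleaved or signal without ligand. In the cerebellum, granule cell progenitors divide in the outer layer, and their daughters extend parallel fibres and migrate inward past Purkinje cells and glia, a route along which Slit, netrin and their receptors have been studied.

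Slit2 and Slit3 each carry a copy of the microRNA gene miR-218, which is known for lowering Robo1. The mature sequences are shown because they tie a ligand gene to a receptor gene within this set, with the seed (bases 2 to 8) in capitals, and both copies give the same 5p arm. No file measured these microRNAs. In RefSeq for the GRCm38.p6 build, Mir218-1 lies on the plus strand within Slit2 (5p arm at chr5:48223966-48223986) and Mir218-2 on the plus strand within Slit3 (5p arm at chr11:35616840-35616860).
mmu-miR-218-5p: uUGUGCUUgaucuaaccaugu
mmu-miR-218-1-3p: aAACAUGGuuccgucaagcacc
mmu-miR-218-2-3p: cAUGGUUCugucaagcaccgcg

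The 250 bases upstream of an annotated start are shown for Slit3, Unc5a and Unc5b, which were called higher in both mutants at P7 (below), 5′ to 3′ on the strand of the gene. Slit1, also called higher in both, and Dcc had no window in the table used. RefSeq for GRCm38.p6 gave windows for the other 8 of the 10 genes, 10 windows in all because Robo2 has 3. The Slit3 window is chr11:35121206-35121455 (plus strand), that of Unc5a chr13:54949161-54949410 (plus strand) and that of Unc5b chr10:60831582-60831831 (minus strand). The Unc5a window lies inside the annotated span of its gene (chr13:54945151-55006018) and so precedes an internal start, whereas those of Slit3 and Unc5b adjoin the span. Capitals mark CAGGGGG, part of the motif described for INSM1, searched on both strands.
Slit3: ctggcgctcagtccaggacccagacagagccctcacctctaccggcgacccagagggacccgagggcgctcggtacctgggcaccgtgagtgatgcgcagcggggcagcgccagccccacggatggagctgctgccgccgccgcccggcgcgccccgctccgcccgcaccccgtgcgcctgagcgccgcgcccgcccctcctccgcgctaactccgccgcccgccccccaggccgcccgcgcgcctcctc
Unc5a: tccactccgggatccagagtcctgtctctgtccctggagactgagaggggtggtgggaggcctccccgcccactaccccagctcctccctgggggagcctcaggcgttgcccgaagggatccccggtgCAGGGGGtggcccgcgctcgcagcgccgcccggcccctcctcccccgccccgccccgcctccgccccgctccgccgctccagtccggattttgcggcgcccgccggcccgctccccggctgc
Unc5b: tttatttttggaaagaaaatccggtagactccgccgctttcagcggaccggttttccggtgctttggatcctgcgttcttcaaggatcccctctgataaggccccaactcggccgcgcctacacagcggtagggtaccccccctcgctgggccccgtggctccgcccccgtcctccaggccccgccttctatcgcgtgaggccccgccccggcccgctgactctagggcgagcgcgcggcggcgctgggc

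These windows are rich in G and C, at 78.8% for Slit3, 76.8% for Unc5a and 66.8% for Unc5b, against a median of 52.4% over 32851 upstream windows of the same length. CAGGGGG or its reverse complement CCCCCTG was in 5.84% of all windows and, among the 10 windows of these genes, in 1 each of Unc5a (122 bases upstream of the start), Slit2 (85 bases) and Robo2 (190 bases). Each of those windows lies inside the annotated span of its gene. The TEAD motif letters GGAATG (reverse CATTCC) were in 12.6% of all windows and in 0 of the 10. The E-box CAGCTG, which is its own reverse complement, was in 13% of all windows and in 1 Robo2 window, and the E-box CAGATG (reverse CATCTG) was in 14.4% of all windows and in 0 of the 10. A match describes letters in these 250 bases only.

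The targeted genes were read first. Insm1, in counts per 1000000 counts (CPM), was 30.8, 31.4, 56.5 and 71.5 in the 4 Insm1 controls at P2 and 10.6, 8.39, 16.1 and 15.1 in the mutants, and at P7 it was 58.5 and 56.6 CPM over all cells against 14.4, 5.73 and 7.61 CPM. Tead2 at P7 was 29.8 and 32.0 CPM in Tead1/2 controls and 9.09, 7.69 and 7.31 CPM in mutants, while at P2 the Tead2 groups overlapped (21.5 to 25.7 CPM against 17.6 to 26.2 CPM). Without the library labelled Tead1/2 mutant 4, described next, Tead2 at P2 was called lower (-0.35, FDR 0.0417). Tead1 went against its label at P7: it was 626 and 633 CPM over all cells of Tead1/2 controls and 1168, 1319 and 1132 CPM in mutants (0.93, FDR 2.3e-06), and it was called higher in the granule lineage too (1.15, FDR 2.54e-06). At P2 its change was -0.09 (FDR 0.746). Counts per gene do not separate deleted exons from kept ones. Muscle-like markers (16 genes) summed to 20.2 to 46.6 CPM in the 7 P2 controls, 170 to 287 CPM in the Insm1 mutants and 175 to 239 CPM in 3 Tead1/2 mutants. The library labelled Tead1/2 mutant 4 stood apart from the other 3 at 19.6 CPM, just below the lowest control, so the P2 calls for Tead1/2 are given with and without it. That library was singled out by its expression, so every call without it is conditional on this choice. Sex at P2 was read from Xist against Ddx3y transcripts. In the Tead1/2 line control 2 and mutant 4 read as female and the other libraries as male. In the Insm1 line mutants 3 and 4 read as male and the other libraries as female, so sex was not balanced between groups. Depth was 28066600 to 64518800 expected counts per P2 library and 90269989 to 211707202 transcript molecules (UMIs) in 4779 to 10710 cells per P7 library, and 0 kept barcodes were shared between P7 libraries.

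At P2 the netrin receptors Unc5b and Dcc had the largest log2 changes of the 10 genes in both lines, Unc5b towards higher and Dcc towards lower levels in mutants. Neither passed in the edgeR quasi-likelihood fit of Insm1 mutants against controls: 0 of the 10 genes were called at a Benjamini-Hochberg FDR under 0.05, beside 0.689% of the 19582 genes tested. In the Tead1/2 fit 0 of 10 were called, beside 0% of the 20247 genes tested, where 4052 genes had an unadjusted p under 0.05. The median log2 change of the 10 genes was 0.03 for Insm1 and -0.09 for Tead1/2, beside 0.01 and -0.01 over all genes tested. In whole tissue, fewer cells of a type and less RNA per cell cannot be told apart.

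**Figure D1:**
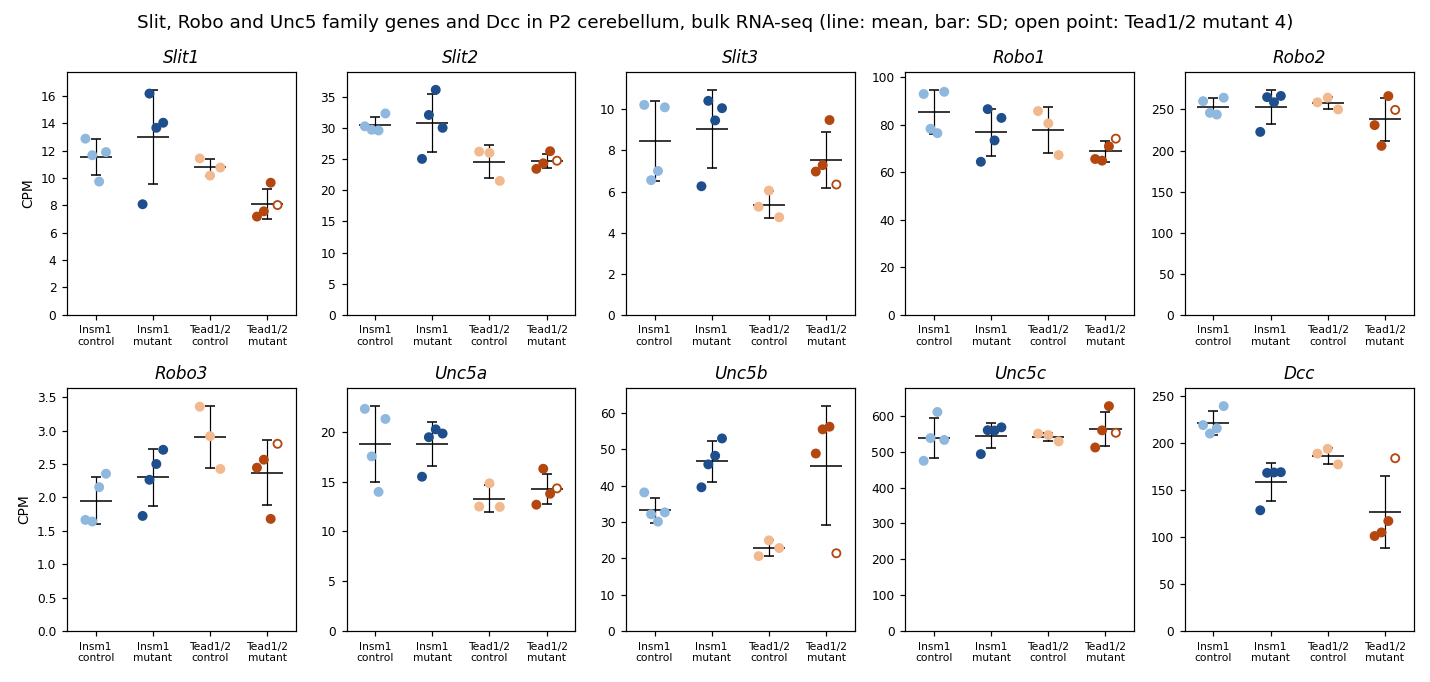
Level of each gene at P2 in whole cerebellum (y axis, CPM with normalized library sizes, from 0; x axis, group). Each point is 1 cerebellum, lines are group means and bars SD; the open point is the library labelled Tead1/2 mutant 4, which lies with the controls for Unc5b (21.4 CPM) and Dcc (183 CPM).

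Unc5b encodes a receptor for repulsive netrin signals that is also known from blood vessels. Its level was 38.1, 32.1, 30.1 and 32.6 CPM in the Insm1 controls and 39.5, 45.8, 48.2 and 52.9 CPM in the Insm1 mutants, with no overlap. The share of all genes whose groups do not overlap was not counted, here or below, so a lack of overlap only describes the values. Group means were 33.2 ± 3.43 and 46.6 ± 5.59 CPM (SD, n = 4 each), a log2 change of 0.50 (SE 0.10, FDR 0.0658). Unc5b in the Tead1/2 line was 20.6, 24.9 and 22.8 CPM in controls and 48.8, 55.5, 56.2 and 21.4 CPM in mutants 1 to 4. Mutants 1 to 3 were above every control, and the library labelled mutant 4 was among them. The log2 change was 0.97 (SE 0.27, FDR 0.115) with all 4 mutants and 1.2 (SE 0.08, FDR 7.05e-05) without mutant 4. The smaller SE and FDR follow from leaving out a library chosen for its control-like expression, and the same holds for Dcc below.

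Dcc encodes the receptor through which netrin attracts commissural axons. It was 219, 210, 215 and 239 CPM in the Insm1 controls and 128, 168, 168 and 169 CPM in the mutants, again with no overlap. The log2 change was -0.47 (SE 0.10, FDR 0.0714), and mutant 1 was the lowest library by a wide gap. Without mutant 1 both genes passed, Dcc at -0.38 (FDR 0.0348) and Unc5b at 0.57 (FDR 0.0155). Dcc in the Tead1/2 line was 188, 193 and 177 CPM in controls and 101, 105, 117 and 183 CPM in mutants 1 to 4, a log2 change of -0.59 (SE 0.17, FDR 0.123). Without mutant 4 the change was -0.82 (SE 0.07, FDR 0.000186). In that fit Unc5b and Dcc were the 2 of 10 genes called, beside 3.19% of the 20234 genes tested, and the other 8 had log2 changes from -0.45 (Slit1) to 0.52 (Slit3).

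DESeq2 called 2 of the 10 genes in the Insm1 line, Unc5b (0.50, adjusted p 0.00199) and Dcc (-0.47, adjusted p 0.00162), beside 1.59% of genes tested. For Tead1/2 it called 1 of 10, Slit1 (-0.45, adjusted p 0.00961), beside 4.72% of genes tested. The summed granule progenitor-like markers moved with the Insm1 result: 1576 to 1749 CPM in controls and 1250 to 1379 CPM in mutants. Those markers were 1257 to 1545 CPM in Tead1/2 controls and 1419 to 1603 CPM in mutants. Besides muscle, the lists without overlap were endothelial-like (186 to 205 against 133 to 181 CPM) and oligodendrocyte lineage-like markers (314 to 346 against 266 to 306 CPM) for Insm1, and Purkinje-like markers (1227 to 1318 against 1347 to 1530 CPM) for Tead1/2. None of the members of these 3 lists was called by edgeR. The part of these lists in the Unc5b and Dcc values was not tested.

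Among the ligands at P2, the Tead1/2 groups did not overlap for Slit1 or Slit3, though neither was called by edgeR. Slit1 was 11.4, 10.2 and 10.8 CPM in controls and 7.18, 7.56, 9.65 and 8.02 CPM in mutants (log2 change -0.45, SE 0.11, FDR 0.0969). Slit3 was 5.26, 6.05 and 4.75 CPM in controls and 6.97, 7.28, 9.48 and 6.34 CPM in mutants (log2 change 0.46, SE 0.14, FDR 0.139). These values stayed close without mutant 4, at -0.45 (FDR 0.0761) for Slit1 and 0.52 (FDR 0.0796) for Slit3. In the Insm1 line both genes overlapped, at 9.73 to 12.9 against 8.08 to 16.2 CPM for Slit1 and 6.56 to 10.2 against 6.26 to 10.4 CPM for Slit3. Slit2, a ligand also made by midline and floor plate cells, differed little: 30.5 ± 1.27 against 30.8 ± 4.62 CPM in the Insm1 line (SD, n = 4 each) and 24.6 ± 2.66 against 24.7 ± 1.18 CPM in the Tead1/2 line (n = 3 and 4).

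The Robo receptors overlapped between groups in both lines at P2. Robo1 was 85.4 ± 9.29 against 76.8 ± 9.96 CPM for Insm1 and 77.9 ± 9.55 against 68.9 ± 4.42 CPM for Tead1/2, where its log2 change was -0.21 (SE 0.07, FDR 0.165). Robo2 was 254 ± 10.2 against 253 ± 20.6 CPM and 258 ± 7.21 against 238 ± 26.0 CPM. Robo3, which lets commissural axons cross the midline, was low at 1.64 to 3.36 CPM over all 15 libraries. Unc5c, a netrin receptor whose loss disturbs granule cell migration, was 475 to 611 CPM in Insm1 controls and 493 to 568 CPM in mutants, and 529 to 551 CPM in Tead1/2 controls and 512 to 627 CPM in mutants. Unc5a lay between 12.5 and 22.3 CPM in the 15 libraries and its groups overlapped in both lines.

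The 2 deletions were compared in 1 fit of the 15 libraries, as the change in Tead1/2 mutants minus the change in Insm1 mutants. At P2, 0 of 10 genes were called for this difference, beside 0% of 20837 genes tested by edgeR (1435 genes had an unadjusted p under 0.05, and DESeq2 called 17 genes or 0.0816%, 0 of them from the set). For Unc5b the difference was 0.48 (SE 0.31) and for Dcc -0.12 (SE 0.22). Without the library labelled Tead1/2 mutant 4 it was 0.71 (SE 0.15, FDR 0.235) for Unc5b and -0.35 (SE 0.13, FDR 0.62) for Dcc. Over the same libraries, with the mean of each line removed, the genes whose log2 CPM tracked Unc5b most closely were Galnt15 (Pearson r 0.98), Nptx1 (0.97) and Thsd4 (0.96). For Dcc they were Ndst3 (0.96), Islr2 (0.96) and Fam84a (0.96). For Slit3 they were Lrp8, Draxin and Rgs7bp, each at 0.90, and for Slit1 Spaca6 (0.92), Gm45537 (0.91) and Adgrl3 (0.91). These values are descriptions over 15 libraries that share genotype groups.

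At P7 the ligands Slit1 and Slit3 and the receptors Unc5a and Unc5b were higher in both mutants, over all cells as well as in the granule lineage. Over all cells of Insm1 mutants, 6 of the 10 genes were called higher, beside 18.6% of 24602 genes tested, and 1 was called lower, beside 15.4%. Over all cells of Tead1/2 mutants, 5 of 10 were called higher, beside 25.9%, and 4 lower, beside 22.7%. The median log2 change of the 10 genes was 0.75 for Insm1 and 0.15 for Tead1/2, beside 0.04 and 0.06 over all genes. Muscle-like markers summed to 55.7 to 75.2 CPM in the 4 controls, 5630 to 6632 CPM in the Insm1 mutants and 12801 to 20065 CPM in the Tead1/2 mutants. All 16 were called higher in both lines. Summed granule neuron-like markers over all cells were 6863 to 7919 CPM in Insm1 controls and 4374 to 5463 CPM in mutants, and 6063 to 7068 CPM against 2639 to 2867 CPM for Tead1/2. Of these 10 markers 6 were called lower and 3 higher for Insm1, and 6 lower and 2 higher for Tead1/2. Granule progenitor-like markers were 3156 to 3236 CPM against 1650 to 1874 CPM and 3256 to 3278 CPM against 1332 to 1594 CPM. Meningeal fibroblast-like markers were 239 to 253 CPM against 948 to 1048 CPM for Insm1, where 2 of 7 were called higher (median log2 change 0.28), and 221 to 241 CPM against 1956 to 2282 CPM for Tead1/2, where 6 of 7 were. Cells of that class were 1.11% to 1.42% of singlets in Insm1 controls and 1.06% to 1.5% in Insm1 mutants. In the Tead1/2 line the class held 105 cells in controls, whose libraries had 5205 and 3425 singlets. It held 510 cells in mutants, whose libraries had 5248, 5735 and 4792 singlets, and so was a larger share there. GABAergic interneuron-like markers were 395 to 417 CPM against 451 to 484 CPM for Insm1 and 432 to 440 CPM against 311 to 410 CPM for Tead1/2. The sums of unipolar brush-like and mural-like markers were above controls in every mutant of both lines, and those of microglia-like and astroglia-like markers in every Insm1 mutant. The Purkinje-like sum was below controls in every Tead1/2 mutant, but 1 of its 7 members was called lower and the median log2 change was 0.58. The part of these shifts in the values over all cells was not tested. Muscle-like cells were 0% to 0.0766% of singlet cells in controls, 11.9% to 13.2% in Insm1 mutants and 19.2% to 25.6% in Tead1/2 mutants.

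**Figure D2:**
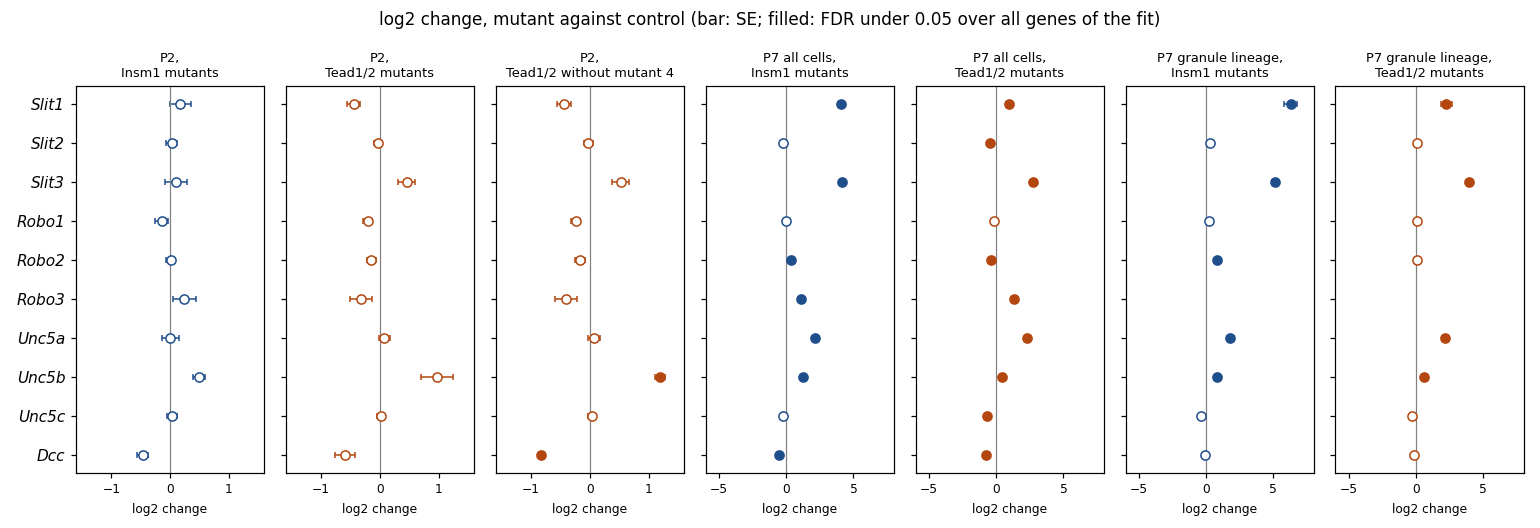
log2 change of each gene in mutants against controls (x axis) for 7 fits, with SE as bars and filled points for FDR under 0.05 over all genes of a fit. The x axis runs further in the P7 panels. Slit1, Slit3, Unc5a and Unc5b are filled to the right of 0 in all 4 P7 panels, and Robo3 has no point in the granule lineage, where at most 11 UMIs of it were counted per library.

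Slit3, a ligand found in many tissues besides brain, was 12.8 and 19.9 CPM over all cells of the Insm1 controls and 266, 313 and 299 CPM in the mutants (log2 change 4.17, SE 0.18, FDR 1.06e-07). For Tead1/2 it was 17.3 and 16.5 CPM in controls and 108, 117 and 124 CPM in mutants (2.77, SE 0.17, FDR 5.78e-07). The controls of both lines were alike and far below every mutant. Slit1 was 1.17 and 1.22 CPM in Insm1 controls and 13.7, 23.9 and 23.0 CPM in mutants (4.08, SE 0.24, FDR 9.61e-07), and 3.70 and 3.42 CPM in Tead1/2 controls and 7.78, 6.55 and 6.67 CPM in mutants (0.97, SE 0.21, FDR 0.00357). Slit2 over all cells was 127 and 114 CPM in Insm1 controls against 113, 93.2 and 103 CPM in mutants (-0.21, FDR 0.135). Slit2 for Tead1/2 was 120 and 114 CPM against 91.0, 73.9 and 85.2 CPM (-0.49, SE 0.10, FDR 0.00231).

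Among the netrin receptors over all cells, Unc5a was 3.03 and 2.72 CPM in Insm1 controls and 12, 13.2 and 12.1 CPM in mutants (2.13, SE 0.12, FDR 7.13e-07). In the Tead1/2 line it was 3.5 and 3.77 CPM against 15.6, 21.0 and 18.0 CPM (2.32, SE 0.12, FDR 2.5e-07). No mutant came near a control in either line. Unc5b was 78.4 and 60.3 CPM in Insm1 controls and 172, 174 and 145 CPM in mutants (1.25, SE 0.14, FDR 8.56e-05). Unc5b for Tead1/2 was 64.5 and 83.1 CPM against 95.1, 111 and 97.8 CPM (0.46, SE 0.14, FDR 0.0187). That call was lost without control 1 (0.29, FDR 0.186) or without mutant 2 (0.39, FDR 0.0597).

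Dcc was lower over all cells in both lines, at 8974 and 8986 CPM in Insm1 controls against 6496, 6002 and 5950 CPM in mutants (-0.53, SE 0.10, FDR 0.00269), and 9880 and 8921 CPM against 6441, 5016 and 5658 CPM for Tead1/2 (-0.73, SE 0.10, FDR 0.000219). Unc5c was 4071 and 3902 CPM against 3662, 3440 and 3087 CPM for Insm1 (-0.22, FDR 0.081), and 3756 and 3976 CPM against 2598, 2218 and 2433 CPM for Tead1/2 (-0.68, SE 0.09, FDR 0.000106). The groups of both genes did not overlap in either line, and the share of all genes for which this held was not counted.

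The Robo receptors differed among themselves. Robo2 was 1079 and 1141 CPM in Insm1 controls and 1321, 1557 and 1428 CPM in mutants (0.38, SE 0.09, FDR 0.00773, lost at FDR 0.0684 without control 1). In the Tead1/2 line it was 1091 and 1043 CPM in controls and 819, 859 and 720 CPM in mutants (-0.42, SE 0.09, FDR 0.00264). The mutants thus lay above controls in one line and below them in the other. Robo1 overlapped in both lines (419 to 464 CPM in Insm1 libraries, 376 to 474 CPM in Tead1/2 libraries). Robo3 was 0.621 and 0.640 CPM against 1.17, 1.2 and 1.70 CPM for Insm1 (1.12, SE 0.19, FDR 0.0014) and 0.785 and 0.988 CPM against 2.08, 2.28 and 2.43 CPM for Tead1/2 (1.35, SE 0.19, FDR 0.000232). In singlets alone the Insm1 change of Robo3 was 0.39 (FDR 0.516).

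The granule lineage, the main cells in which Atoh1Cre acts, was then taken alone as granule progenitor-like and granule neuron-like singlets, 887 to 4253 cells per library. The lineage was 75.9% to 81.4% of singlets in controls, 36.8% to 45.0% in Insm1 mutants and 31.5% to 41.0% in Tead1/2 mutants. Different clusters held it: cells of controls were mostly in progenitor-like clusters 0, 4 and 8 and neuron-like clusters 1, 3 and 10, whereas progenitor-like clusters 2, 11 and 24 had 1, 16 and 0 cells of controls and 2986, 1781 and 653 cells of mutants. Neuron-like cluster 23 held 16 cells of Insm1 controls and 435 of Insm1 mutants, and 35 and 195 cells in the Tead1/2 line. In this lineage of Insm1 mutants 5 of the 10 genes were called higher, beside 11.8% of 15768 genes tested, and 0 lower, beside 10.2%. In Tead1/2 mutants 4 of 10 were called higher, beside 10.5%, and 0 lower, beside 8.63%. At an unadjusted p under 0.05 in the edgeR fits, Unc5c was also lower in both lines and Robo3 lower in Insm1 mutants. At that level Slit2 and Robo1 were higher in Insm1 mutants and Robo3 higher in Tead1/2 mutants. DESeq2 called 1 gene lower for Insm1 (Unc5c), beside 9.72%, and 0 for Tead1/2, beside 8.54%. With the dissection as a block (library 1 of each group has all lobules, the others lack lobules IX and X), 8 of 10 were called for Insm1, 6 higher, beside 11.9%, and 2 lower, beside 10.8%. Those added were Slit2 (0.34, FDR 0.00954), Unc5c (-0.37, FDR 0.0238) and Robo3, whose counts are too few to read (below).

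**Figure D3:**
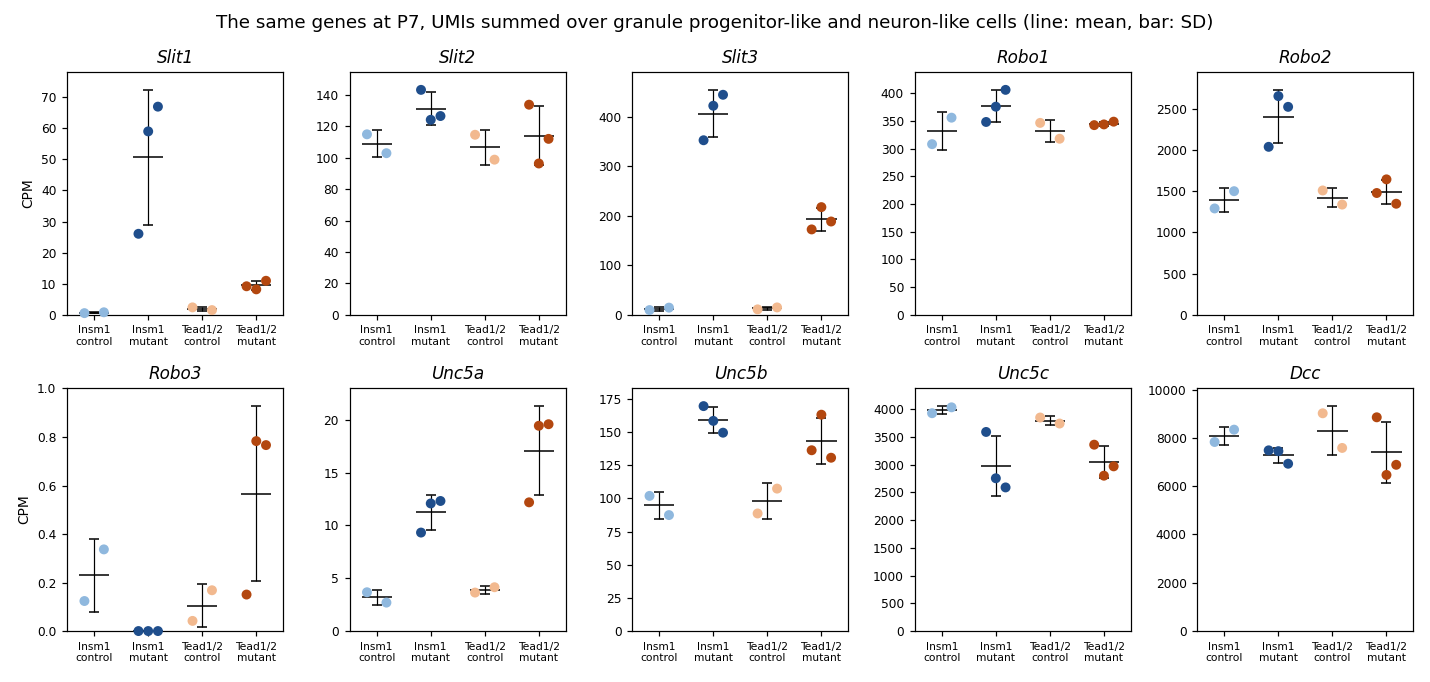
Level of each gene at P7 in the granule lineage (y axis, CPM of UMIs summed over granule progenitor-like and granule neuron-like cells, from 0; x axis, group). Each point is 1 cerebellum, lines are means and bars SD. Slit3 is at 9.53 to 14.9 CPM in the 4 controls and 172 to 444 CPM in the 6 mutants.

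Within the lineage Slit1 was 0.537 and 0.808 CPM in Insm1 controls, from 13 and 12 UMIs, and 26.1, 59.0 and 67.0 CPM in mutants, from 313, 674 and 435 UMIs (log2 change 6.30, SE 0.48, FDR 4.71e-06). Mutant 1, the dissection with all lobules, was the lowest of the 3 mutants and still far above the controls. In the Tead1/2 line Slit1 was 2.39 and 1.51 CPM in controls and 9.18, 8.19 and 10.9 CPM in mutants (2.25, SE 0.42, FDR 0.0022). Slit3 was 9.53 and 14.5 CPM against 352, 422 and 444 CPM for Insm1 (5.14, SE 0.21, FDR 9.22e-08). For Tead1/2, Slit3 was 11 and 14.9 CPM against 172, 217 and 188 CPM (3.91, SE 0.20, FDR 3.77e-07). Both ligands were thus higher in every mutant library than in any control of either line. Slit2 was 115 and 103 CPM in Insm1 controls and 143, 124 and 127 CPM in mutants (0.30, FDR 0.12), and 115 and 98.8 CPM against 134, 96.3 and 112 CPM for Tead1/2 (0.10, FDR 0.649).

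For the netrin receptors, Unc5a was 3.67 and 2.69 CPM in Insm1 controls and 9.32, 12.1 and 12.3 CPM in mutants (1.81, SE 0.24, FDR 0.000247). It was 3.64 and 4.15 CPM in Tead1/2 controls and 12.2, 19.4 and 19.6 CPM in mutants (2.14, SE 0.23, FDR 3.59e-05), so no mutant overlapped a control. Unc5b was 102 and 87.4 CPM against 170, 158 and 149 CPM for Insm1 (0.78, SE 0.12, FDR 0.000472). For Tead1/2 it was 88.6 and 107 CPM against 136, 163 and 131 CPM (0.56, SE 0.11, FDR 0.00427, lost at FDR 0.0817 without control 1). Dcc was 7829 and 8340 CPM against 7483, 7449 and 6928 CPM for Insm1 (-0.12, SE 0.14, FDR 0.606), and 9018 and 7583 CPM against 8851, 6465 and 6884 CPM for Tead1/2 (-0.16, SE 0.14, FDR 0.515). Unc5c was 3930 and 4036 CPM against 3592, 2756 and 2591 CPM (-0.39, SE 0.13, FDR 0.0537) and 3852 and 3744 CPM against 3362, 2803 and 2972 CPM (-0.31, SE 0.13, FDR 0.135). The lower Dcc over all cells was thus not called within this lineage, and neither was Unc5c.

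Robo2 in the lineage was 1292 and 1502 CPM in Insm1 controls and 2040, 2657 and 2526 CPM in mutants (0.82, SE 0.13, FDR 0.000868). In the Tead1/2 line the groups overlapped, at 1510 and 1339 CPM against 1480, 1645 and 1349 CPM (0.07, SE 0.13, FDR 0.763). Robo1 overlapped in both lines, at 308 to 406 CPM in Insm1 libraries and 318 to 349 CPM in Tead1/2 libraries. Robo3 gave 3 and 5 UMIs in Insm1 controls and 0 UMIs in each of the 3 mutants, and 1 and 3 UMIs in Tead1/2 controls against 2, 11 and 11 UMIs in mutants, too few for a fold change to be read.

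Markers of muscle moved with genotype within these cells too. The summed muscle-like list was 68.1 to 85.6 CPM in the 4 controls, 156 to 174 CPM in Insm1 mutants and 269, 1223 and 351 CPM in Tead1/2 mutants 1 to 3. Granule neuron-like markers within the lineage were 9388 to 9944 CPM against 5384 to 7148 CPM for Insm1 and 8081 to 8881 CPM against 4429 to 5035 CPM for Tead1/2. Of the 10 markers 6 were called lower and 3 higher for Insm1, and 5 lower and 1 higher for Tead1/2. Meningeal fibroblast-like markers were 15.3 to 15.8 CPM against 34.4 to 55.3 CPM and 15.9 to 17.2 CPM against 40.02 to 70.8 CPM, with 1 of 4 tested members called higher in each line. The astroglia-, Purkinje-, oligodendrocyte lineage-, GABAergic interneuron- and endothelial-like sums were below controls in every mutant of both lines. Mural- and ependymal-like sums were above them. So were microglia-like sums for Insm1 and unipolar brush-like sums for Tead1/2, where progenitor-like sums were below controls. Called members of some of these lists went both ways. The part of these lists in the values of the lineage was not tested. In muscle-like cells themselves, which only mutants held in number, Slit1 was 6.04 ± 2.82 CPM in Insm1 mutants (SD, n = 3) and 2.01 ± 0.209 CPM in Tead1/2 mutants (n = 3). Slit3 there was 44.1 ± 27 and 40.4 ± 5.11 CPM, and Unc5b 8.91 ± 0.555 and 3.84 ± 1.58 CPM, below the lineage of the same mutants for all 3 genes. Unc5a in muscle-like cells was 42.7 ± 5.06 and 36.4 ± 3.65 CPM, above the lineage of the same mutants.

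The 2 stages of the lineage were read apart, since neuron-like cells were 30.6% to 41.1% of singlets in controls and 4.74% to 13.8% in mutants. In progenitor-like cells Slit1 was 0.867 ± 0.383 CPM in Insm1 controls (SD, n = 2) and 64.1 ± 25.1 CPM in mutants (n = 3), and 2.70 ± 1.06 against 10.1 ± 1.28 CPM for Tead1/2. Its log2 change in these cells was 6.26 (SE 0.46, FDR 9.27e-07) and 1.82 (SE 0.39, FDR 0.00419). Progenitor-like cluster 11, which had Slit1 among its leading genes and held 1670 cells of Insm1 mutants and 6 of Insm1 controls, was at 98.4 CPM. Cluster 24, with 637 cells of Tead1/2 mutants and 0 of their controls, was at 36.6 CPM, and the other progenitor-like clusters were at 1.61 to 12.4 CPM. In neuron-like cells Slit1 rested on 2 to 40 UMIs per library, and its change was 2.77 (FDR 0.0938) for Insm1 and 4.05 (FDR 0.00333) for Tead1/2. These counts are too few for a fold change to be read.

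Slit3 was called higher in both stages of both mutants. In neuron-like cells it was 11.4 ± 6.56 CPM in Insm1 controls and 886 ± 266 CPM in mutants (log2 change 6.51, SE 0.52, FDR 1.57e-06), and 15.3 ± 6.01 against 425 ± 211 CPM for Tead1/2 (4.8, SE 0.48, FDR 2.28e-05). Cluster 23 was at 1718 CPM and the other neuron-like clusters, 1, 3 and 10, at 6.59 to 22.2 CPM. In progenitor-like cells it was 11.5 ± 0.598 against 308 ± 60.5 CPM (4.73, SE 0.18, FDR 6.58e-09) and 10.6 ± 0.548 against 157 ± 20.9 CPM (3.86, SE 0.17, FDR 1.14e-08).

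Unc5b was called in both stages, and in progenitor-like cells its change was larger than over the lineage. In progenitor-like cells it was 35.4 ± 1.14 against 112 ± 5.01 CPM for Insm1 (1.65, SE 0.12, FDR 1.04e-06) and 48.0 ± 8.05 against 129 ± 18.1 CPM for Tead1/2 (1.40, SE 0.12, FDR 1.76e-06). In neuron-like cells, whose level was higher in every group, it was 153 ± 15.3 against 368 ± 34.5 CPM (1.41, SE 0.14, FDR 8.06e-06) and 169 ± 16.0 against 244 ± 35.3 CPM (0.52, SE 0.14, FDR 0.0254). Unc5a was called higher in both stages of both lines, with log2 changes of 1.85 to 2.47.

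Dcc and Unc5c ran in opposite directions along the lineage of controls. In Insm1 controls Dcc was 10557 ± 238 CPM in progenitor-like and 4211 ± 133 CPM in neuron-like cells, and Unc5c was 2352 ± 106 and 5459 ± 225 CPM. In Insm1 mutants Dcc was 8743 ± 584 and 2730 ± 763 CPM, with log2 changes of -0.28 (FDR 0.219) and -0.49 (FDR 0.0623). The change of Unc5c in Insm1 mutants, -0.39 over the lineage, was -0.10 (FDR 0.51) in progenitor-like and 0.34 (FDR 0.0326) in neuron-like cells. Robo1 passed in neuron-like cells only, at 188 ± 8.49 against 314 ± 54.0 CPM for Insm1 (0.88, SE 0.15, FDR 0.00103) and 203 ± 17.4 against 333 ± 48.5 CPM for Tead1/2 (0.70, SE 0.15, FDR 0.00825), and the difference between stages was not tested. Robo2 in progenitor-like cells was 1492 ± 114 against 2759 ± 302 CPM for Insm1 (0.88, SE 0.11, FDR 9.63e-05) and 1513 ± 158 against 1650 ± 127 CPM for Tead1/2 (0.09, FDR 0.628).

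Besides these, clusters 5 and 15 had Fat2 among their leading genes, carried granule markers, and stayed unnamed. They held 0.0957% to 0.263% of singlets in controls, 17.4% to 20.8% in Insm1 mutants and 9.79% to 12% in Tead1/2 mutants. Unc5b, which was among the leading genes of both clusters, was 650 ± 18.3 CPM there in Insm1 mutants and 737 ± 40.0 CPM in Tead1/2 mutants (SD, n = 3 each), above every named class. Slit3 was 684 ± 76.0 and 470 ± 57.9 CPM and Dcc 954 ± 179 and 800 ± 188 CPM, the latter below progenitor-like and neuron-like cells. With these clusters counted in the lineage, the change of Unc5b was 1.79 (SE 0.12, FDR 6.57e-07) for Insm1 and 1.5 (SE 0.12, FDR 2.09e-06) for Tead1/2. Dcc was then -0.46 (SE 0.14, FDR 0.0353) and -0.38 (SE 0.14, FDR 0.0749).

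**Figure D4:**
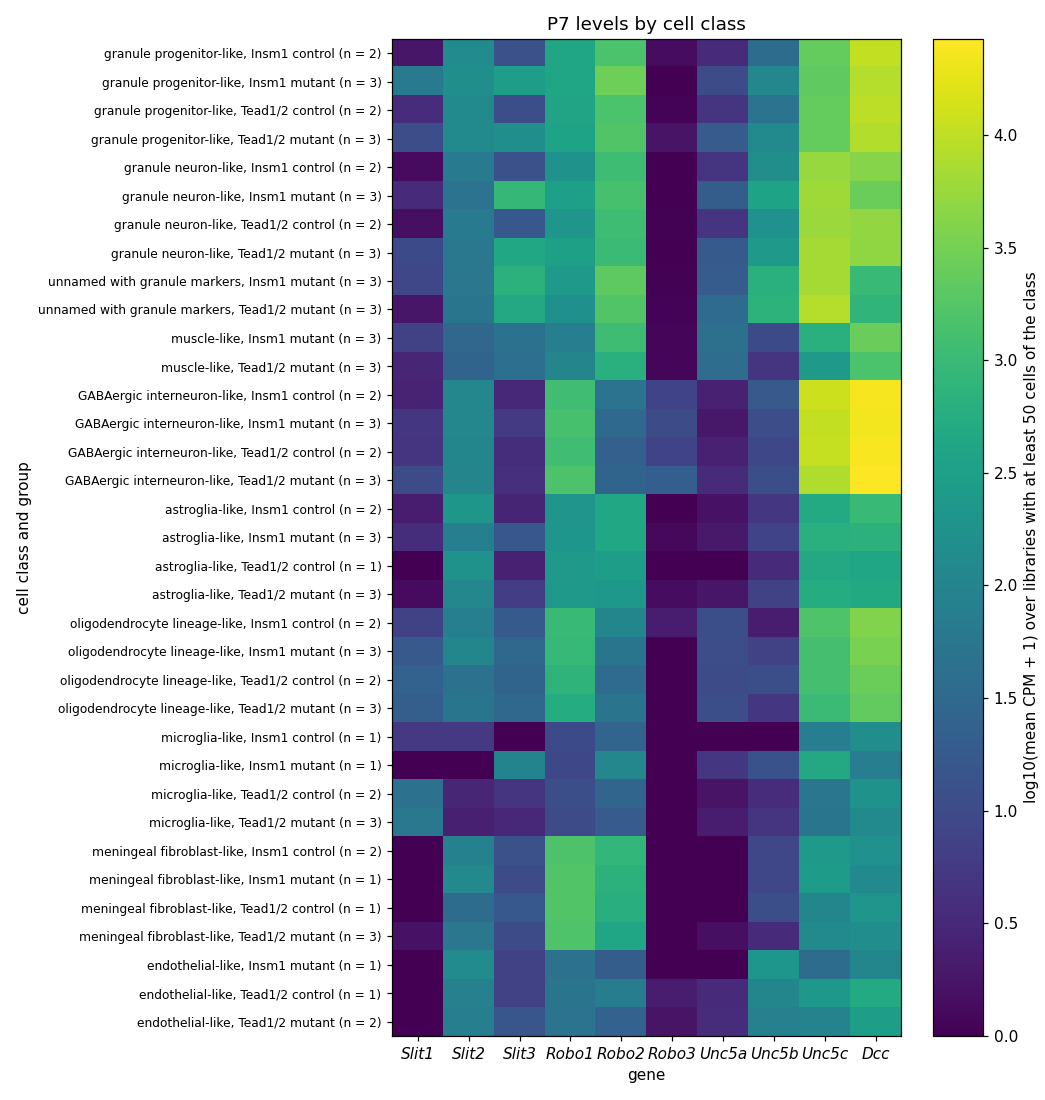
Mean level of each gene (columns) by P7 cell class and group (rows), as log10 of CPM + 1 over the n libraries with at least 50 cells of the class. Colours are to be read down a column, since levels of different genes are not comparable; Slit3 is bright in granule and unnamed classes of mutants, and Robo3 and Dcc in GABAergic interneuron-like cells.

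Other classes mark where each gene was otherwise found, as descriptions with no test. They cover only classes left by the doublet filter and are no full survey of cerebellar cells. With only the top 4% of doublet scores removed, 579 Purkinje-like and 238 mural-like cells formed clusters, which are absent here. Endothelial-like cells of Insm1 controls were 252 there and 0 here. Values in this paragraph are for the singlets kept unless stated. Among the named classes, Dcc and Unc5c were highest in GABAergic interneuron-like cells, at 22899 ± 127 and 12099 ± 106 CPM in Insm1 controls (SD, n = 2). Robo3 was 6.92 ± 0.376 CPM there, and in Tead1/2 mutants 19.96 ± 6.70 CPM (n = 3) against 6.78 ± 0.858 CPM in Tead1/2 controls (n = 2), whereas the mean of every other named class was at most 1.26 CPM in each group. Robo1 was highest in meningeal fibroblast-like cells, at 1573 ± 135 CPM in Insm1 controls, and 1150 ± 144 CPM in GABAergic interneuron-like cells. Among class means of the singlets kept, Slit2 was highest among controls in astroglia-like cells of Insm1 controls, at 216 ± 80.5 CPM. It was 79.3 ± 30.4 CPM in those of Insm1 mutants. In the separate clustering with only the top 4% removed, a meningeal fibroblast-like cluster of 146 cells was far higher. Its levels were 1007 CPM for Slit2 and 791 CPM for Slit3, so the main source of Slit2 depends on the doublet filter. Among the 3 clusters named microglia-like by their count of markers, Slit1 was 24.4 CPM in cluster 20, 150 CPM in cluster 27 and 0 CPM in cluster 30, which held 27 cells. The 10 leading genes of cluster 27 held none of that list and included Mrc1, F13a1 and Lyve1, known from border macrophages, so its name is doubtful. It held 43 cells of Tead1/2 controls, 222 of Tead1/2 mutants and 2 and 1 of Insm1 controls and mutants. Unc5b was 108 CPM in endothelial-like cells of 1 Tead1/2 control. In astroglia-like cells, which Atoh1Cre does not target, Slit3 was 1.35 to 2.41 CPM in Insm1 controls and 11.2 to 21.6 CPM in Insm1 mutants, and 1.56 CPM in 1 Tead1/2 control against 0.588, 10.02 and 5.56 CPM in Tead1/2 mutants, 1 of which was below the control. Free RNA in these libraries can add such low counts, and its part was not tested.

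The difference between the deletions was also fitted at P7. Over all cells 3 of 10 genes were called, beside 3.68% of genes tested: Slit1 (-3.12, SE 0.30, FDR 0.00169), Slit3 (-1.40, SE 0.21, FDR 0.00917) and Robo2 (-0.81, SE 0.13, FDR 0.0105), each lower in Tead1/2 than in Insm1 mutants relative to their controls. In the granule lineage 1 of 10 was called, beside 0.615%: Slit1 (-4.05, SE 0.70, FDR 0.0277). That call was lost without Insm1 control 1, control 2 or mutant 2, or without Tead1/2 control 1, control 2 or mutant 3, with FDR between 0.0515 and 0.223. Slit3 there was -1.22 (SE 0.25, FDR 0.061) and Robo2 -0.74 (SE 0.18, FDR 0.12). With the dissection as a block Slit3 passed (-1.22, FDR 0.00175), and with DESeq2 both passed (Slit3 -1.22, adjusted p 0.000432, and Robo2 -0.75, adjusted p 0.00791). For Unc5b the difference was -0.79 (SE 0.19, FDR 0.0507) over all cells, and it passed with DESeq2 (-0.81, adjusted p 0.00156) and with no low-count filter (-0.78, FDR 0.014). In the lineage it was -0.22 (SE 0.16, FDR 0.735) for Unc5b and 0.34 (SE 0.33, FDR 0.832) for Unc5a, which does not show that the deletions acted alike on them.

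A list of 63 further genes of the Slit and netrin pathways gives the surroundings of the 10. At P2, 0 of the 62 tested were called in either line by edgeR. Without mutant 4, 3 were called for Tead1/2 (beside 3.19% of all genes), each lower: the Robo-binding regulator Srgap3 (-0.38, FDR 0.03), Dscaml1 (-0.34, FDR 0.0467) and Rgmb (-0.33, FDR 0.0487). In the P7 granule lineage 13 of 61 were called higher and 12 lower for Insm1, beside 11.8% and 10.2% of all genes tested, and 15 higher and 13 lower for Tead1/2, beside 10.5% and 8.63%, with medians of -0.01 and -0.04, beside 0.01 and 0.01 over all genes.

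By role, and to be read against the same shares of all genes (11.8% higher and 10.2% lower for Insm1, 10.5% and 8.63% for Tead1/2), 6 of 14 further ligands were higher and 3 lower in each line. Cbln4, a ligand of Dcc and neogenin, went from 0.320 to 4.86 CPM in Insm1 mutants (3.85, FDR 0.00016) and from 0.210 to 14.5 CPM in Tead1/2 mutants (6.03, FDR 3.05e-06). Its control levels rest on few UMIs, so the size of these changes is limited by depth. Rgma, which binds neogenin, went from 7.14 to 37.3 CPM (2.43, FDR 2.19e-05) and from 6.35 to 54.3 CPM (3.10, FDR 2.9e-06). Among the lower ligands, Ntn4 went from 404 to 198 CPM for Insm1 (-1.0, FDR 3.38e-05) and from 378 to 222 CPM for Tead1/2 (-0.76, FDR 0.000235). Ntn1, the main netrin, went from 623 to 823 CPM in Insm1 mutants (0.43, FDR 0.00698) and from 679 to 548 CPM in Tead1/2 mutants (-0.30, FDR 0.0447), and the difference was called (-0.73, SE 0.14, FDR 0.0368). The other 2 of the 61 called for that difference, beside 0.615% of all genes, were Srgap1 (0.92, FDR 0.0109) and Myo10 (-0.56, FDR 0.0415). These 3 were named for the difference after their values were seen.

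Beside the same shares, 1 of the 4 further receptors tested was higher and 0 lower in each line, the adhesion receptor Dscam (1.26, FDR 1.92e-05, and 1.26, FDR 1.58e-05). Of 11 co-receptors and Slit-binding proteins 3 were higher and 1 lower in each line, the latter the syndecan Sdc3 (-0.81, FDR 0.000735, and -0.80, FDR 0.000783). Of 32 intracellular genes 3 were higher and 8 lower for Insm1, and 5 higher and 9 lower for Tead1/2. Those that were higher included the actin-binding protein Ablim1 (1.96, FDR 3.38e-05, and 1.48, FDR 0.000149). Srgap3, which acts downstream of Robo, was lower at -1.54 (FDR 0.000169) and -1.47 (FDR 0.000212), and the ubiquitin ligase Trim67, which binds Dcc, was lower at -1.19 (FDR 0.000445) and -0.93 (FDR 0.00198). Over all P7 cells 25 of the 63 were higher and 18 lower for Insm1, beside 18.6% and 15.4% of all genes, and 20 higher and 24 lower for Tead1/2, beside 25.9% and 22.7%.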

How the data were processed

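Bulk RNA-seq (15 P2 libraries, 1 cerebellum each) and single-cell RNA-seq (10 P7 libraries) were used. The 13 ATAC-seq and 24 CUT&RUN samples of the series are not used here. The P2 values are expected counts from RSEM, as deposited by the authors; they were rounded, and 92 ERCC rows were left out. The table named for INSM1 holds the Tead1/2 columns and the reverse, so samples were matched by column name. For P7 the authors deposited raw UMI counts per barcode. The submitters' processing notes name STAR 2.7.9a, RSEM 1.3.3, Seurat 4.4.0 and the builds GRCm38.p6 and mm10, without roles, and the P7 gene table names GRCm39.

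Each P2 line was fitted alone with edgeR 4.0.16 (filterByExpr, TMM, quasi-likelihood test, Benjamini-Hochberg over all genes tested), and the 10 P7 libraries in 1 fit of 4 groups on summed UMIs. P7 barcodes needed 1000 UMIs, 500 genes and under 15% mitochondrial UMIs. Clusters (scanpy 1.11.5, 2000 variable genes without the 10 genes described, 30 components, Leiden resolution 1) were named from marker lists, with at least 3 markers each. Doublets were kept in sums over all cells. For classes, the threshold set by Scrublet marked too few cells in 3 libraries, so its median over the other 7 (score 0.04079) was used, after the data were seen. This score removed 30.1% to 53.2% of cells per library, within each line more from every control than from any mutant. Control libraries lost 51.2% and 53.2% (Insm1 line) or 46.2% and 46.6% (Tead1/2 line). Mutant libraries 1 to 3 lost 37.4%, 43.2% and 49.6% (Insm1 line) or 30.1%, 41.0% and 37.0% (Tead1/2 line). Median UMIs were 4409 to 7733 in the singlets kept and 15970 to 26400 in the cells removed. Shares of singlets and lineage values rest on this filter, and lineage results under other doublet rules are given below. DESeq2 1.42.0 was an alternative. Tested on simulated data, the fits called 74 to 97 of 100 genes changed 2-fold and 98 to 100 of 100 changed 4-fold. The 97 was for P2 Tead1/2. On the real libraries that fit called 0 of 20247 genes and 0 of 16 muscle-like markers, whose median log2 change was 3.45. The simulation therefore does not show that genes left uncalled in P2 Tead1/2 were unchanged.

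The genes and lists were chosen with earlier results of these data known. All 10 genes are named; of the pathway list, up to 4 called genes per direction with the largest change are named, except that some genes are not reported here. P-values measure the spread between animals.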

Additional observations from a re-analysis of the deposited data

Results flagged for a closer look

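At P2, the library labelled Insm1 mutant 1 lay apart from the other 3 Insm1 mutants for 3 of the 10 genes: Dcc at 128 CPM against 168 to 169 CPM, Unc5a at 15.5 CPM against 19.5 to 20.3 CPM, and Unc5c at 493 CPM against 559 to 568 CPM. These are 3 of 30 groups of 4 libraries looked at, of which chance alone would mark about 1 in 20 if they were independent. The groups are genes over shared libraries and all 3 flags fall on Insm1 mutant 1, so they cannot be set against that rate. Without this library Dcc was called lower (-0.38, FDR 0.0348) and Unc5b higher (0.57, FDR 0.0155), while Unc5a (0.09) and Unc5c (0.07) were not called.

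The change at P7 differed between the deletions for 3 genes over all cells, by edgeR's test of the difference (Tead1/2 minus Insm1): Slit1 by -3.12, Slit3 by -1.40 and Robo2 by -0.81 on the log2 scale. In the granule lineage it differed for Slit1, by -4.05. That call was lost in 6 of the 10 fits that left out 1 library. In neuron-like cells alone the difference was 1.28 and not called, but Slit1 had too few UMIs there for its sign or size to be read.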

How the results depend on the processing

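Of the alternative values of log2 changes of single genes, 985 kept their direction and their side of the threshold, 44 newly passed, 13 no longer passed, 42 changed sign and 25 moved by more than the replicate spread. Of the alternative counts of called genes, 127 stayed within 1.5 times the reported one, 19 rose past that and 6 fell below it. The cause of each difference below was not tested.

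For P2 Insm1, the count of called genes was 2 with DESeq2 and 2 with no low-count filter (beside 1.59% and 0.539% of all genes), against 0. The sex term, in a line where only mutants held males, gave the reverse sign for Slit2 (-0.082), Slit3 (-0.016), Robo2 (-0.044), Unc5a (-0.094) and Unc5c (-0.021), and no low-count filter for Robo2 (-0.0099) and Unc5a (-0.013). For P2 Tead1/2 the count was 1 with DESeq2 (beside 4.72%), 4 with no filter (Unc5b, Dcc, Slit1 and Slit3, beside 3.14%) and 2 with the replicate block (Unc5b 1.2, Dcc -0.83, beside 1.17%). In that block mutant 4 has no control with its number and so drops out of the comparison. The block result therefore compares the same libraries as the fit without mutant 4 and is not independent of it. The 2 fits are not identical, since the block adds replicate terms: it called 236 of all genes, against 646 without mutant 4. Over all P7 cells the count for the difference between deletions was 5 with DESeq2 (beside 8.78%) and 5 with no filter (2.79%), against 3, and Robo1 in Insm1 singlets was 0.0092.

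In the granule lineage the signs of small changes depended on the cells summed. For Insm1, neuron-like cells alone gave Slit2 -0.32 and Unc5c 0.34, progenitor-like cells alone gave Robo1 -0.051, and Unc5c was 0.085 with only the top 4% of doublet scores removed and 0.15 with the unnamed clusters. For Tead1/2, neuron-like cells alone gave Slit2 -0.21, Robo2 -0.11 and Unc5c 0.20, and progenitor-like cells alone gave Robo1 -0.13 and Unc5c 0.0047. With the unnamed clusters Slit2 was -0.0022, Robo1 -0.045 and Unc5c 0.20, with the top 4% removed Robo1 was -0.0021, and with the doublet threshold of each library Robo2 was -0.066 and Dcc 0.20. The last threshold and the unnamed clusters were added after the data were seen. With that threshold the cells were clustered anew. Its clusters 7 and 18 (2472 and 1269 cells, all of mutants) shared leading genes with progenitor-like cluster 2 above, such as Chst9 or Tacr1. They stayed without a name and so lay outside the lineage, and their part in these values was not tested. The count for the difference between deletions was 3 with DESeq2 (beside 1.6% of all genes), 4 with no filter (1.99%), 2 in progenitor-like cells (1.3%), 0 in neuron-like cells (0.0173%, where Slit1 was 1.28 on too few UMIs to read), 2 under each doublet rule (1.03% and 1.42%) and 2 with the unnamed clusters (0.851%), against 1.

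The replicate block is the replicate number at P2 and the dissection at P7. With it the lineage counts were 8 for Insm1 (beside 22.7% of all genes) and 3 for the difference (1.01%), against 5 and 1, and apart from P2 Tead1/2 (above) the other counts stayed within 1.5 times. At P2 deviations of same-numbered libraries correlated between -0.13 and 0.23, so the numbers do not pair them.

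Leaving out each library in turn gave 0 to 2 called genes at P2 for Insm1 (2 without mutant 1, beside 0.667% of all genes), 0 to 2 for Tead1/2 (2 without mutant 4, beside 3.19%), 3 to 7 in the lineage for Tead1/2 (7 without mutant 1, beside 22.8% of all genes, and 3 without control 1, beside 10.7%) and 0 to 3 for the difference there. Signs changed in ranges around 0: for P2 Insm1, Slit2 -0.057 to 0.11, Slit3 -0.0045 to 0.25, Robo2 -0.017 to 0.065, Unc5a -0.11 to 0.10 and Unc5c -0.029 to 0.091. For P2 Tead1/2 they were Slit2 -0.092 to 0.00999 and Unc5c -0.033 to 0.053, and for lineage Tead1/2 Slit2 -0.037 to 0.22 and Robo2 -0.0069 to 0.16.

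Over all genes tested, edgeR called 135 for P2 Insm1, against 312 with DESeq2, 212 with no filter, 64 with the replicate block and 88 with the sex term. For P2 Tead1/2 it called 0, against 955, 1287, 236 and 3, and 4 with all 15 libraries in 1 fit. The difference between deletions at P2 gave 0, against 17 with DESeq2 and 11 with no filter. The difference between deletions at P7 gave 906 genes over all cells (2159 with DESeq2) and 97 in the lineage (252 with DESeq2, 643 with no filter, 159 with the replicate block, 197 in progenitor-like and 2 in neuron-like cells, 174 with the top 4% removed and 222 with the threshold of each library). In neuron-like cells alone, 1869 genes were called for Insm1 against 3469 and 1139 for Tead1/2 against 3019. Slit1 in controls, at 12 to 57 UMIs in the lineage, and Robo3, at 0 to 11, were limited by depth.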
